A study of Rattus norvegicus with 26 samples.

Results

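The cytosolic ribosomal proteins were followed in cultured liver cells, primary hepatocytes from Sprague Dawley females (Crl:CD(SD)IGS BR), that had been given TCDD or PCB 126. They were taken as all probe sets that the platform's table assigns to a single gene whose symbol begins with Rpl or Rps followed by a digit, or with Rplp, without the Rps6k kinase genes. This gave 62 of the 8799 probe sets of the array, for 43 genes: 19 probe sets for 13 genes of the small (40S) subunit and 43 probe sets for 30 genes of the large (60S) subunit. Of the genes, 36 carry a canonical symbol, 5 a paralog symbol (Rpl19l4, Rpl36al1, Rpl3l, Rps27l and Rplp1l3) and 2 a pseudogene symbol (Rps2-ps1 and Rps4x-ps9). Another 31 probe sets name several ribosomal protein genes at once and were kept apart.

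Hepatocytes were cultured from 2 pools of 3 rats each and exposed for 48 hours, and RNA from each culture was hybridised to 1 of 26 short-oligonucleotide arrays. TCDD, a chlorinated dibenzo-p-dioxin, and PCB 126, a coplanar chlorinated biphenyl, both bind the aryl hydrocarbon receptor, and the series compared their dose responses. Each pool had 1 vehicle array (0.5% DMSO). TCDD was used at log10 molar doses of -14, -12, -10, -8 and -6.5 in both pools and at -11 and -9 in pool 2 alone, that is from 0.01 pM to 316 nM, on 12 arrays. PCB 126 was used at -12, -10, -8, -6 and -5 in both pools and at -11 and -9 in pool 2 alone, from 1 pM to 10000 nM, on 12 arrays. This made 11 arrays of pool 1 and 15 of pool 2. A pool is 1 biological unit, no dose had more than 1 array per pool, and nothing in the labels says that cultures of a pool came from separate animals, so the p-values below measure the spread between arrays. All values are the deposited log2 expression values. In RNA of a whole culture, fewer cells of a type and less RNA per cell cannot be told apart.

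Ribosomal proteins form, with the ribosomal RNAs, the machine that translates the messenger RNAs of the cytosol. Their messengers are among the most abundant of most cells, the proteins are made in matched amounts, and a secretory cell such as the hepatocyte holds very many ribosomes. Vertebrate ribosomal protein messengers start with a run of pyrimidines (C or T), the 5' terminal oligopyrimidine tract, through which growth signalling by mTOR sets their translation.

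The starts of 8 genes are shown as examples: Rps24, Rpl5 and Rpl21 were among the most variable, Rpl36al1 and Rpl26 among those with large pool differences, Rpl6 and Rpl19 are named for their dose slopes, and Rplp0 is a commonly used reference gene. Of the 43 genes, 36 matched a RefSeq start on build GRCr8. The window from 20 bases before to 25 after the annotated start was searched for a run of at least 8 C or T. Such a run was found at 24 of the 36 starts (66.7%), against 17.3% of all 33469 starts in the table. A run of at least 8 A or G, which is the same run on the other strand, was found at 5.56% of the members' starts and 19.2% of all. The windows below reach from 50 bases before to 25 after the start, 5′ to 3′ on the gene's strand, with the longest run of at least 8 C or T inside the searched window in capitals. A run that begins before that window is capitalised only from its edge, as in Rpl21. Rps24 lies at chr16:96467-96541 (+), Rpl5 at chr14:1995201-1995275 (-), Rpl21 at chr12:13386129-13386203 (-), Rplp0 at chr12:46718366-46718440 (-), Rpl19 at chr10:83519014-83519088 (+), Rpl36al1 at chr6:93392234-93392308 (-), Rpl6 at chr12:41011666-41011740 (-) and Rpl26 at chr10:54109642-54109716 (+).
Rps24: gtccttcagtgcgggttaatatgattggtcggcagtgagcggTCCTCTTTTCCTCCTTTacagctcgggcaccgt
Rpl5: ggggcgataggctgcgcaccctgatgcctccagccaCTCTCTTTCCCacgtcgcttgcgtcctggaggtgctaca
Rpl21: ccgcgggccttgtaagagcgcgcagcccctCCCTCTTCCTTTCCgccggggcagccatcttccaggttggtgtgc
Rplp0: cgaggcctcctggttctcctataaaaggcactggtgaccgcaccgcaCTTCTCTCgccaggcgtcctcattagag
Rpl19: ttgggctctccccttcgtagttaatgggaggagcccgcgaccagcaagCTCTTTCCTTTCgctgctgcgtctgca
Rpl36al1: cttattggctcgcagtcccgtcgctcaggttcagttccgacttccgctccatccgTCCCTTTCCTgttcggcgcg
Rpl6: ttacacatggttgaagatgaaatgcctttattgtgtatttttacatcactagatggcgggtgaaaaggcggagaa
Rpl26: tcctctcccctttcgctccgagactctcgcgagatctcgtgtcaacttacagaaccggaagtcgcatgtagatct
Rpl6 and Rpl26 have no such run in the window searched, though Rpl26 has C and T in a row farther before its start, and the annotated start need not be the start used in these cells. The Rpl6 window, like those of Rps24 and Rpl19, lies inside the gene's annotated span. Whether the Rpl6 messenger starts with such a run can therefore not be read from its window.

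The arrays did not all behave alike, and this bears on every result below. Pool 1 and pool 2 differed in the actin control's 3' minus 5' log2 difference (0.82 ± 0.12, SD, n = 11, and 1.51 ± 0.22, n = 15), which measures RNA or labelling quality. They also differed in the mean of 6 control probe sets that read the reverse strand of actin and Gapdh (7.71 ± 1.04 and 5.80 ± 0.94) and in the array median (3.85 ± 0.08 and 3.58 ± 0.07). Cyp1a1, the receptor's best known target, read 3.45 and 3.28 on the vehicle arrays and 11.69 to 12.77 at the highest dose of either chemical. At PCB 126 -12 it read 3.21 in pool 1 but 10.80 in pool 2, above the 7.91 at -11, so the pool 2 array labelled -12 goes against its dose label. Of the hepatocyte marker genes, 9 of 9 on the array had a mean above 8, and no Kupffer, endothelial or cholangiocyte marker did (0 of 5, 0 of 4 and 0 of 3). Of 6 stellate cell markers 1 did. These counts are by gene, and the means of single probe sets of the hepatocyte genes ran from 4.11 to 14.21.

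Most ribosomal protein probe sets were bright and steady. Of the 62, 58 passed the filter on low values (the second-highest value above 3.712, the median of all values), representing 42 genes, and 44 of these had a mean above 10. Means ran from 3.52 for Rplp1l3 to 13.22 for the first Rps29 probe set, with a median of 11.52. Where a gene has several probe sets, they are numbered here in the alphabetical order of their names. The steadiest was the second of Rps3, a protein at the messenger's entry site, which lay between 11.89 and 12.15 in pool 1 and between 12.06 and 12.22 in pool 2. Rps16, a 40S protein near the decoding site, lay between 12.44 and 12.79 on all 26 arrays, whatever the chemical or dose. The SD within pools had a median of 0.20 log2 over the 58, against 0.24 over all 5197 probe sets kept. Among bright probe sets (a mean over 10) it was 0.19 for the 44 members and 0.22 for 320 others.

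The 4 probe sets that did not pass were both of Rpl3l, another of Rps15 and a second of Rps2-ps1. Rpl3l, the paralog of Rpl3 known from skeletal and heart muscle, read 2.07 to 2.34 and 2.47 to 2.87 over the arrays. The Rps15 probe set read -0.38 to 2.07, while the other Rps15 probe sets had means of 11.10 and 8.59, and the Rps2-ps1 one read 2.56 to 3.21. No fold or test is given for these.

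No single-gene ribosomal protein probe set had a dose slope that passed the test with either chemical; 2 probe sets that name several genes did with PCB 126 and are described at the end. A slope of log2 value on log10 dose was fitted within each chemical with limma, over all 26 arrays with a pool term, and called at a Benjamini-Hochberg adjusted p below 0.05 over 5197 probe sets. For TCDD 0 of 58 members were called, where 3.1% of all probe sets were (161), 1.64% higher and 1.46% lower with dose. For PCB 126 0 of 58 were called, where 4.25% of all were (221), 1.56% higher and 2.69% lower. At an unadjusted p below 0.05 the members numbered 5 for TCDD (8.62%, against 14.5% of all) and 9 for PCB 126 (15.5%, against 16.9%). The median slope was -0.006 log2 per decade for TCDD (-0.009 over all) and -0.016 for PCB 126 (0.006 over all), with 21 slopes above 0 and 37 below for TCDD and 16 above and 42 below for PCB 126. The 40S and 60S members had median slopes of -0.006 and -0.007 for TCDD and -0.012 and -0.017 for PCB 126.

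The precision of these slopes bounds what could have been missed. The median standard error was 0.0226 log2 per decade for TCDD and 0.0229 for PCB 126, and over the whole dose range, 7.5 and 7 decades, the median 95% interval reached 0.35 and 0.33 log2 to each side. For 50 of 58 probe sets with TCDD and 49 with PCB 126 the interval of the change over the range lay within 1 log2, and for 31 and 30 within 0.5. The 8 wider ones with TCDD, for Rps24, Rpl17, Rpl5, Rpl19l4, Rps4x-ps9, Rps15 (the second) and Rpl21 (the second and the third), allow larger changes, as do these and Rpl36al1 with PCB 126. The slopes of both pools had the same sign in 20 of 58 probe sets for TCDD and in 45 for PCB 126. This share was not computed over all probe sets. Members also vary together over arrays, so the counts show neither agreement nor discord between the pools.

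**Figure D1:**
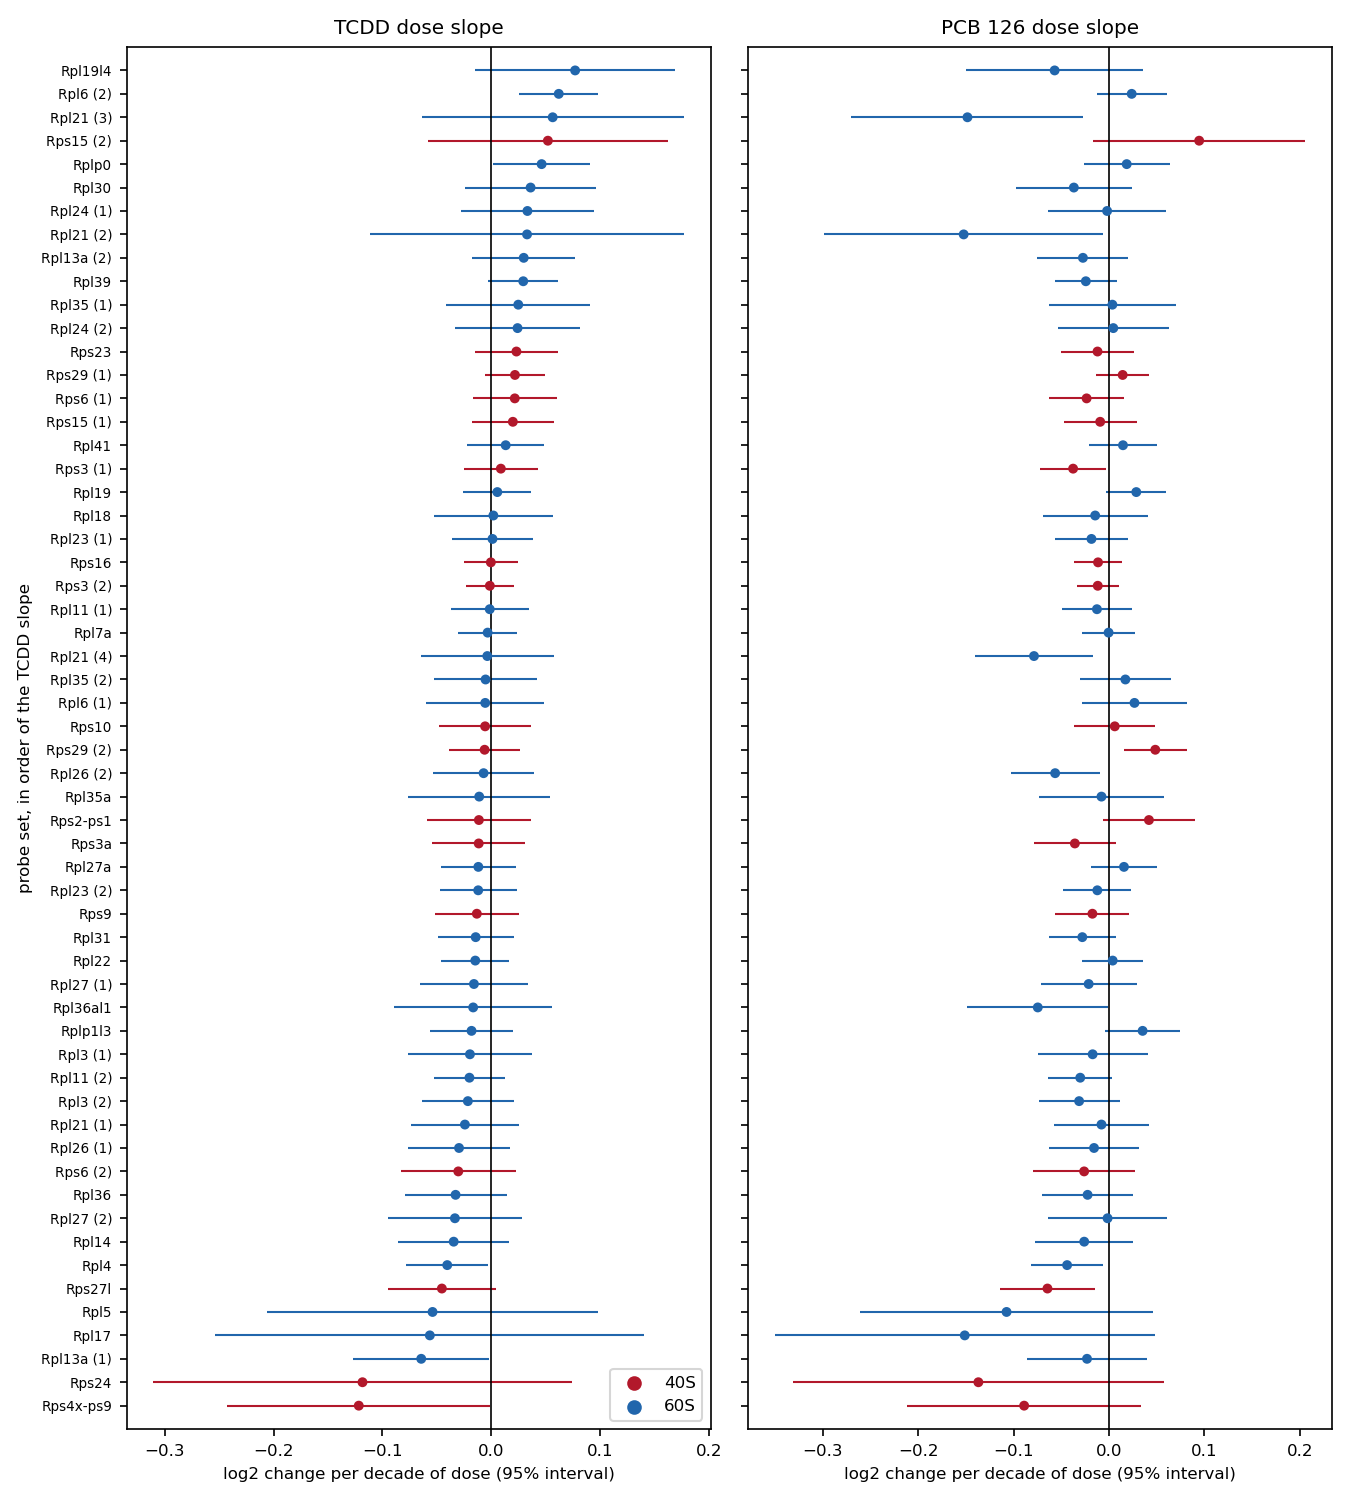
Dose slopes of the 58 probe sets for TCDD (left) and PCB 126 (right), in log2 change per decade of dose, with 95% intervals; red is 40S and blue 60S, and a number in brackets tells probe sets of one gene apart. The points lie between -0.122 and 0.077 for TCDD and between -0.152 and 0.095 for PCB 126, and the widest intervals belong to Rpl17, Rps24, Rpl5 and the second Rpl21 probe set.

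Rpl6, a 60S protein, came closest to a call with TCDD. Its second probe set read 10.99 with vehicle in pool 1, then 10.59, 10.79, 11.15, 11.27 and 11.20 at TCDD -14, -12, -10, -8 and -6.5. In pool 2 it read 10.92 with vehicle and 10.83, 10.88, 10.40, 10.88, 10.94, 11.07 and 10.94 at -14, -12, -11, -10, -9, -8 and -6.5. The 2 lowest TCDD doses of pool 1 were thus below its vehicle and the 3 highest above it, whereas in pool 2 the TCDD values stayed between 10.83 and 11.07 apart from the low array at -11. The slope was 0.062 ± 0.018 (SE) log2 per decade, 0.46 over the dose range (95% interval 0.19 to 0.74), with a limma adjusted p of 0.053. In pool 1 alone it was 0.0906 and in pool 2 alone 0.0346. The adjusted p fell below 0.05 under 9 of 40 alternatives and ran from 0.026 to 0.835 over them, and without single arrays (TCDD -14, -11 or -6.5 or PCB 126 -5 of pool 2, or TCDD -10 of pool 1) it was 0.026 to 0.0491. The first Rpl6 probe set did not share the slope, at -0.006 ± 0.026 with an adjusted p of 0.941. It read 12.75 at TCDD -14 of pool 1, its highest value, and 11.45 at TCDD -11 of pool 2, its lowest.

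Among the other TCDD slopes, those farthest above 0 were Rpl19l4 at 0.077 ± 0.045 (adjusted p 0.467), the third Rpl21 probe set at 0.056 ± 0.058 (0.731), the second of Rps15 at 0.052 ± 0.053 (0.729) and Rplp0 at 0.046 ± 0.022 (0.324). Rplp0, the base of the stalk that recruits elongation factors, read 11.77 with vehicle and 12.26 at TCDD -6.5 in pool 1, and 11.38 and 11.52 in pool 2. Its values at -8, 11.44 and 11.51, were lower than at -6.5 in both pools. Farthest below 0 were Rps4x-ps9 at -0.122 ± 0.059 (0.341), Rps24 at -0.118 ± 0.093 (0.630), the first Rpl13a probe set at -0.064 ± 0.030 (0.322), Rpl17 at -0.057 ± 0.095 (0.828) and Rpl5 at -0.054 ± 0.074 (0.793). Rps4x-ps9 rests on pool 1, where 2 arrays, TCDD -10 and -6.5, read 8.77 and 8.54 while the other TCDD arrays read 10.44 to 10.90. Its slope was -0.243 in pool 1 and -0.008 in pool 2.

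With PCB 126 the smallest adjusted p belonged to the second probe set of Rps29, a small zinc-binding 40S protein. In pool 1 it read 12.19 with vehicle and 12.37, 12.43, 12.35, 12.41 and 12.57 at -12, -10, -8, -6 and -5. In pool 2 it read 12.25 with vehicle and 12.18, 12.25, 12.09, 12.05, 12.29, 12.53 and 12.68 at -12, -11, -10, -9, -8, -6 and -5. The highest dose gave the highest value in both pools, and in pool 2 the rise lay in the last 3 doses. The pool 2 array at PCB 126 -5 stood apart, as described below, with the highest reverse-strand control mean of its pool (8.36). The part of this in the slope was not tested. The slope was 0.049 ± 0.016 log2 per decade, or 0.34 over the range (0.11 to 0.57), with a limma adjusted p of 0.0938 (0.0454 to 0.994 over the alternatives). The first Rps29 probe set had a slope of 0.014 ± 0.013 with an adjusted p of 0.540.

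Rpl4, whose long loop reaches into the peptide exit tunnel, and Rps27l, a paralog of Rps27 known as a p53 target, had PCB 126 slopes below 0 in both pools. Rpl4 read 11.73 with vehicle and 11.67, 11.59, 11.53, 11.48 and 11.33 at PCB 126 -12 to -5 in pool 1, in strict order of dose. In pool 2 it read 12.34 with vehicle and 12.07, 12.07, 12.19, 12.14, 12.09, 11.93 and 11.68, with the 2 highest doses lowest. The last of these values is from the PCB 126 -5 array of pool 2, which stood apart. The slope of -0.044 ± 0.018 had an adjusted p of 0.212, and that of Rps27l, -0.065 ± 0.024, one of 0.149. Among the alternatives, Rpl4 was called only where vehicle stood 1 decade under the lowest PCB 126 dose (-0.049, adjusted p 0.0478), Rps27l only when the PCB 126 arrays were fitted alone (-0.064, adjusted p 0.0219), and the second probe set of Rpl26, a protein near the tunnel exit, only without the PCB 126 -6 array of pool 1 (-0.076, adjusted p 0.0248). With TCDD, Rpl4 had a slope of -0.041 ± 0.018 and an adjusted p of 0.301.

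**Figure D2:**
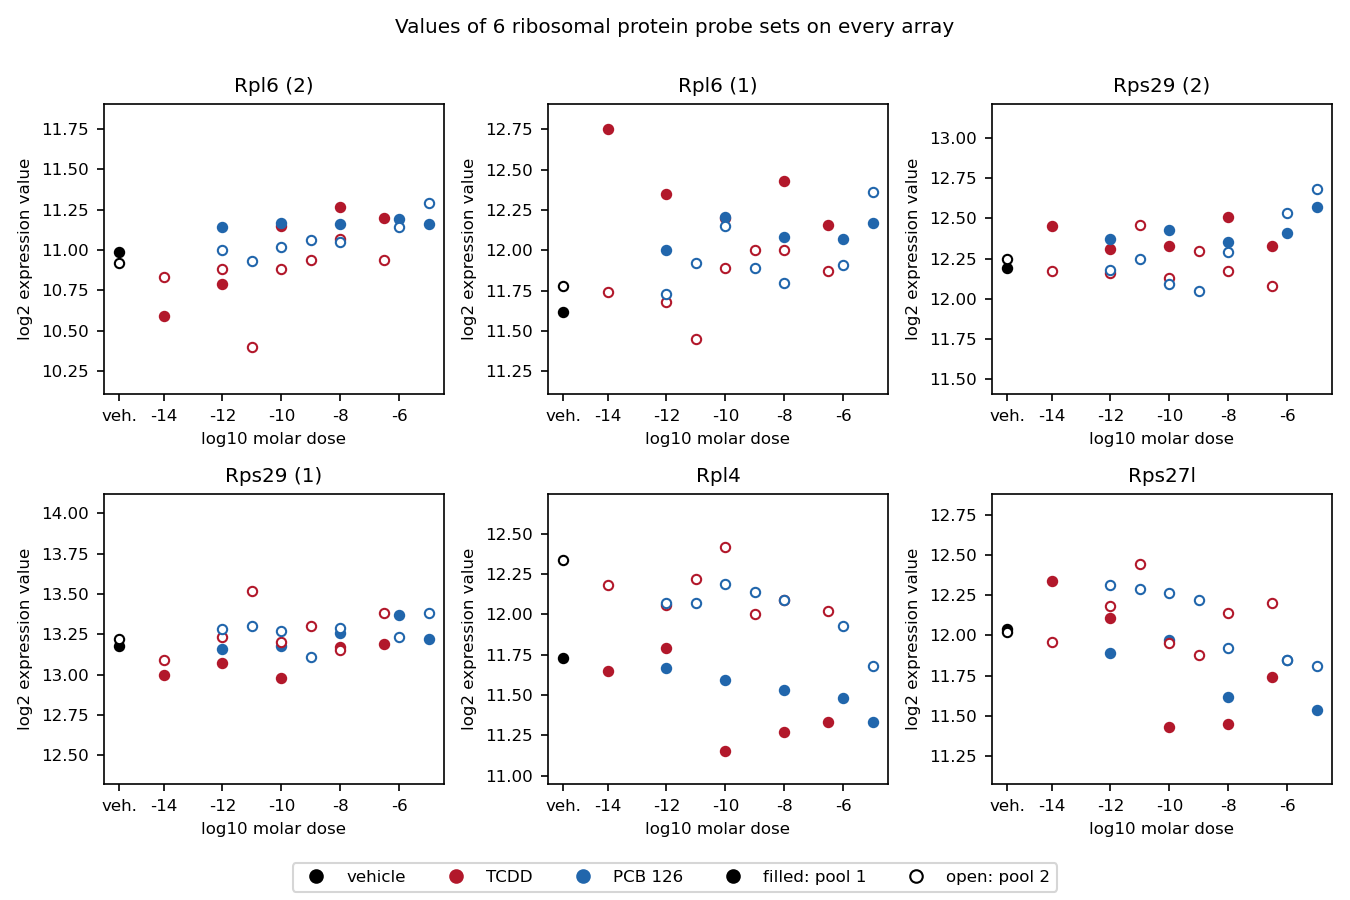
Log2 values on every array against log10 molar dose (vehicle at the left) for both Rpl6 and both Rps29 probe sets, Rpl4 and Rps27l; filled points are pool 1 and open points pool 2, and each panel spans 1.8 log2. The second Rps29 probe set is highest at PCB 126 -5 in both pools, and Rpl4 falls in order of PCB 126 dose from 11.67 to 11.33 in pool 1 and is lowest at the highest dose, 11.68, in pool 2. The PCB 126 -5 array of pool 2 stood apart in its control values.

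The other PCB 126 slopes farthest above 0 were the second Rps15 probe set at 0.095 ± 0.054 (adjusted p 0.361), Rps2-ps1 at 0.042 ± 0.023 (0.358), Rplp1l3 at 0.035 ± 0.019 (0.346) and Rpl19 at 0.029 ± 0.015 (0.346). Rps2-ps1 and Rplp1l3 read close to the array medians. Farthest below were the second Rpl21 probe set at -0.152 ± 0.071 (0.268), Rpl17 at -0.151 ± 0.097 (0.396), Rps24 at -0.137 ± 0.094 (0.416), Rpl5 at -0.107 ± 0.075 (0.419) and Rps4x-ps9 at -0.089 ± 0.059 (0.408). Tagln, a smooth muscle and stellate cell marker, fell with PCB 126 by 0.48 and 0.51 log2 per decade on its probe sets (adjusted p 0.00549 and 0.00859), and Lyz2, a macrophage marker, fell by 0.17 (0.0222). With TCDD, Lyz2 fell by 0.19 (0.00915) and Cps1, a hepatocyte urea cycle enzyme, by 0.21 and 0.16 (0.0249 and 0.044). Ahsg, a hepatocyte plasma protein gene, went the other way, with slopes of 0.071 with TCDD (adjusted p 0.0249) and 0.092 with PCB 126 (0.00521). Of the 4 macrophage probe sets, the other 3 were not called in either trend. Over all 4 the median slope was above 0, at 0.061 with PCB 126 and 0.023 with TCDD. Of the 5 stellate cell probe sets, 3 were not called with PCB 126, and 5 were not called with TCDD. Of the 20 hepatocyte probe sets, 17 were not called with TCDD and 19 were not called with PCB 126. The part of these marker changes in the members' slopes was not tested.

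High doses against vehicle gave the same picture of no call. The mean of the 2 highest doses was compared with vehicle in a limma model of 15 groups and pool, and 0 of 58 members were called for TCDD, where 2.25% of all probe sets were (1.35% higher, 0.904% lower). For PCB 126 it was 0 of 58, where 3.04% of all were (1.56% higher, 1.48% lower). There were 2 members with TCDD and 3 with PCB 126 at an unadjusted p below 0.05 (10.9% and 13.3% of all). The smallest adjusted p was 0.443, for Rpl4 with TCDD (-0.36), and 0.198, for the second Rps29 probe set with PCB 126 (0.33, against 0.05 with TCDD). Both contrasts use the same 2 vehicle arrays. Estimates ran from -0.76 for Rps24 to 0.42 for the first Rpl6 probe set with TCDD, and from -0.81 to 0.42 for the same probe sets with PCB 126. Rps24 read 9.66 with vehicle in pool 1 and 8.18 in pool 2, and the first Rpl6 probe set 11.62, its lowest value in pool 1, and 11.78. The Rps24 estimates average opposite changes in the pools. At TCDD -8 and -6.5 Rps24 read 7.01 and 8.25 in pool 1, below vehicle, and 8.72 and 8.66 in pool 2, above it. At PCB 126 -6 and -5 it read 7.28 and 7.55 in pool 1 and 8.57 and 9.04 in pool 2.

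TCDD and PCB 126 were not separated by any member. The difference of the slopes (TCDD minus PCB 126) was called for 0 of 58 members and 0% of all probe sets, and 4 members had an unadjusted p below 0.05 (6.9%, against 6.58% of all). It ran from -0.055 for the second Rps29 probe set (95% interval -0.101 to -0.008) to 0.205 for the third Rpl21 probe set (0.034 to 0.376), both with an adjusted p of 0.577. For Rps24, whose slopes were -0.118 and -0.137, the interval of the difference was -0.255 to 0.292, so equal slopes are not shown. Whether the slopes differed between pools was tested as well. For TCDD 0 of 58 members were called (0.0577% of all probe sets) and for PCB 126 0 of 58 (0%), with 7 and 0 members at an unadjusted p below 0.05 (8.54% and 1.75% of all). The widest gap was that of Rps24 with TCDD, a slope of -0.338 in pool 1 and 0.090 in pool 2 (adjusted p 0.349).

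Most members differed between the pools. With dose and chemical in the model, 41 of 58 members (70.7%) differed between the pools, 35 higher (60.3%) and 6 lower (10.3%) in pool 2, where 79.8% of all probe sets did, 40% higher and 39.7% lower. The 41 belong to 32 genes. Among bright probe sets (a mean over 10), 79.5% of the 44 members were called, with a median difference of 0.25, against 63.1% of 320 others, with a median of 0.12. The median difference was 0.22 log2 (pool 2 minus pool 1), against 0.02 over all probe sets, but the median size was smaller than over all, 0.27 against 0.44. Of the 17 probe sets of the 40S subunit 12 were higher and 2 lower, and of the 41 of the 60S subunit 23 were higher and 4 lower. This count rests on the scale of the arrays: with each array centred on the median of the kept probe sets, which lowers the median of all probe sets from 0.02 to -0.22, 17 members were higher and 13 lower, and the members' median was -0.02. Centred on the mean, 24 were higher and 9 lower. All probe sets were called at 78.5% and 79% in these fits. With the actin 3' minus 5' difference as a covariate, 13 members (22.4%) were called, 11 higher and 2 lower, and 28.6% of all probe sets. The actin difference ran from 0.64 to 1.06 in pool 1 and from 1.24 to 2.19 in pool 2, without overlap. A call lost or kept with that covariate, here or below, therefore does not tell RNA quality from pool. Pool, RNA quality and handling of the arrays cannot be told apart.

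**Figure D3:**
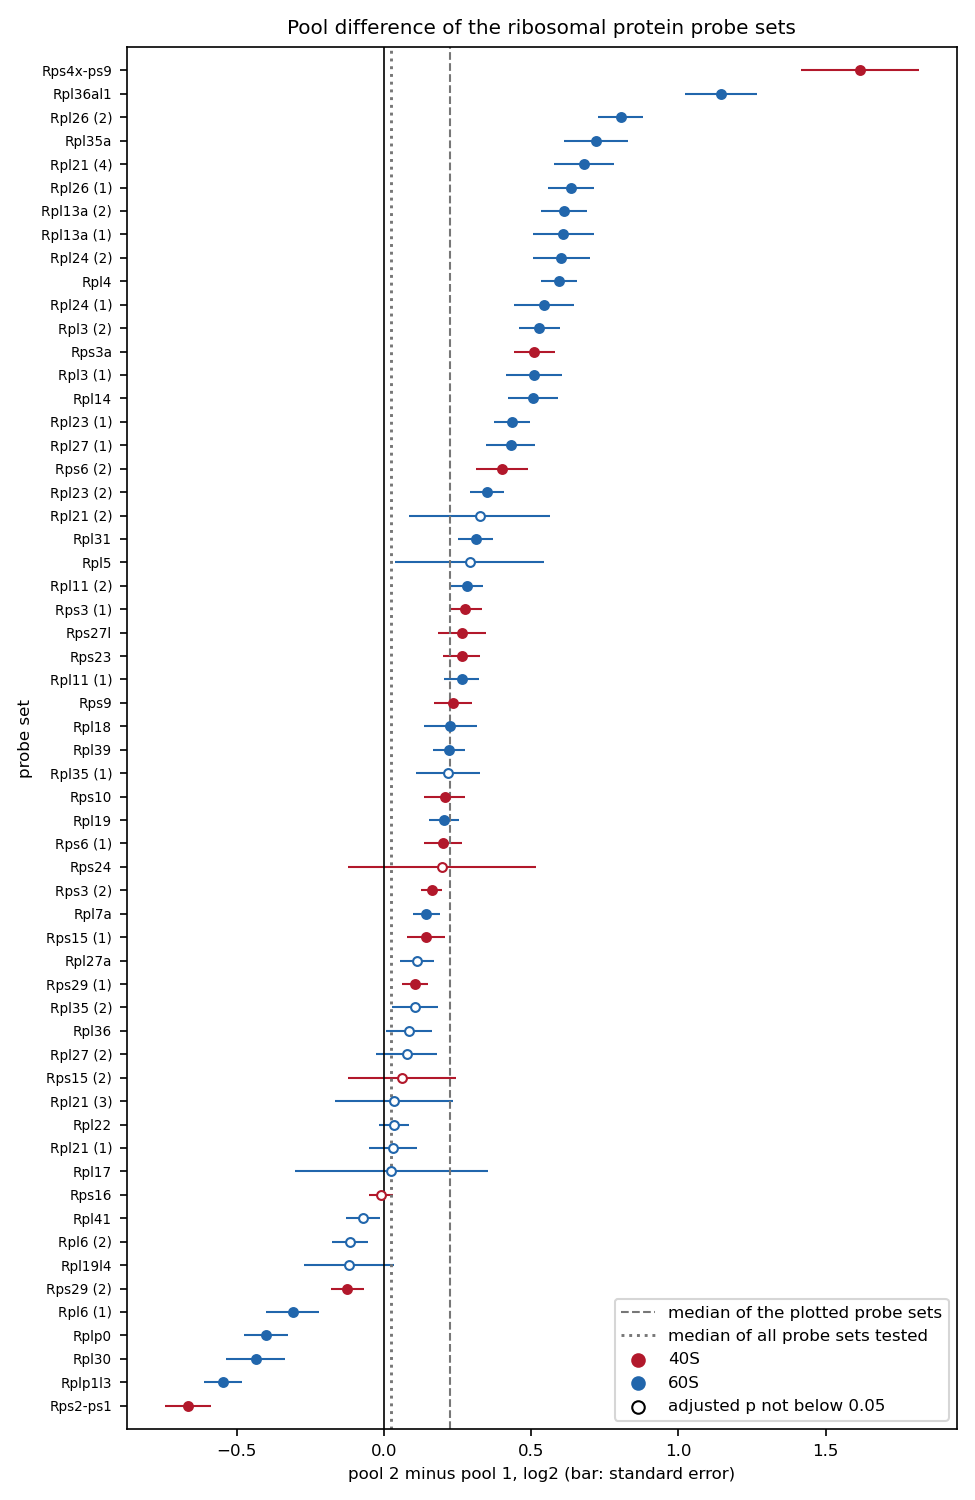
Pool difference (pool 2 minus pool 1, log2) of each of the 58 probe sets with its standard error; red is 40S, blue 60S, filled points have an adjusted p below 0.05 and open ones do not. Most points lie right of 0, from -0.67 for Rps2-ps1 to 1.62 for Rps4x-ps9, with a median of 0.22 (dashed) against 0.02 for all probe sets (dotted).

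Rps4x-ps9 had the largest pool difference. It read 8.54 to 10.90 in pool 1 (median 10.45) and 11.01 to 12.22 in pool 2 (median 11.72), without overlap, a difference of 1.62 ± 0.20 (limma adjusted p 1.14e-07). The symbol is that of a pseudogene copy of Rps4x, and 2 probe sets that name both genes had pool means of 13.35 and 13.47 and of 12.14 and 12.20, so they did not show a gap of that size. Rpl36al1, a paralog of Rpl36a, read 6.54 to 8.34 in pool 1 and 8.28 to 8.97 in pool 2, overlapping on 1 array of each pool (1.15 ± 0.12, adjusted p 1.5e-08). The second Rpl26 probe set read 11.44 to 12.26 and 12.17 to 12.90 (0.80 ± 0.08, adjusted p 4.2e-09), and the first differed by 0.63 ± 0.08. Rpl35a, mutated in some Diamond-Blackfan anaemia families, read 9.33 to 10.62 and 10.56 to 11.13 (0.72 ± 0.11, adjusted p 1.66e-06). The fourth probe set of Rpl21, a 60S protein, read 10.56 to 11.31 in pool 1 and 10.77 to 11.94 in pool 2 (0.68 ± 0.10, adjusted p 1.5e-06), the pool 2 value of 10.77 being that of PCB 126 -5. With the actin covariate Rps4x-ps9 (1.03, adjusted p 0.0744) and Rpl35a (0.35, 0.235) were no longer called, while Rpl36al1, Rpl26 and the fourth Rpl21 probe set were.

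The probe sets lower in pool 2 were few. Rplp0 read 11.44 to 12.26 in pool 1 and 11.12 to 11.87 in pool 2 (-0.40 ± 0.07, adjusted p 2.92e-05), and the first Rpl6 probe set 11.62 to 12.75 and 11.45 to 12.36 (-0.31 ± 0.09, adjusted p 0.00316). Both overlap between the pools, and with the actin covariate Rplp0 was -0.06 and Rpl6 0.13, neither called. Rps2-ps1 (4.07 to 5.0 and 3.57 to 4.27, -0.67 ± 0.08), Rplp1l3 (3.57 to 4.24 and 3.13 to 3.72, -0.55 ± 0.06) and Rpl30 (5.37 to 6.67 and 5.15 to 5.73, -0.44 ± 0.10) were among the dimmest members, and the array median itself was lower in pool 2, 3.58 against 3.85. Of these, Rps2-ps1 (-0.40, adjusted p 0.0722) and Rpl30 (-0.36, adjusted p 0.22) were not called with the actin covariate, and with the reverse-strand covariate Rpl30, Rplp0 and Rpl6 were not (adjusted p 0.236, 0.118 and 0.177). The probe set that names Rpl30 with its copies had pool means of 10.87 and 11.07. Rps29 had 1 probe set called higher in pool 2 (the first, 0.11 ± 0.05, adjusted p 0.0377) and 1 called lower (the second, -0.12 ± 0.05, adjusted p 0.0411), the only such case among 14 genes with several probe sets kept.

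Probe sets of one gene agreed only in part. Over the 19 pairs of the 14 genes, the pool differences lay a median of 0.17 log2 apart and at most 0.65, between the fourth and the first Rpl21 probe sets (0.68 and 0.03). Over arrays, with the pool means removed, their correlation had a median of 0.40 and ran from -0.15 for those Rpl21 probe sets to 0.92 for the pair of Rpl24, whose probe sets carry the same sequence record in their names. Any 2 members correlated at a median of 0.19, against -0.01 for any 2 probe sets kept. In pool 1 the median was 0.26 and in pool 2 0.09. These correlations are over arrays that share depth of signal and handling, and are descriptions only.

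Arrays differed from one another within a pool in ways that dose does not order. Of each probe set's spread over the 26 arrays, the pool took a median of 42.4%, chemical and dose slopes 11.3%, dose groups beyond the slopes 23.4% and the remainder 18.6%. Over all probe sets kept the shares were 52.7%, 8.48%, 16.9% and 15.7%. These are shares of sums of squares, not scaled by degrees of freedom. The slope model left 20 and the model of dose groups 10, so dose groups take up noise as well. The sizes of the shares are therefore not ranked. The SD over arrays was larger in pool 1 for 52 of 58 members, with medians of 0.247 in pool 1 and 0.148 in pool 2. Wider spread in pool 1 was not particular to the members. The interquartile range of all kept probe sets' deviations on an array averaged 0.34 in pool 1 and 0.21 in pool 2. For the members it averaged 0.29 and 0.16. Lowest of all arrays was TCDD -10 of pool 1, where 45 of 58 members lay below their pool mean, with a median of -0.27, while the median of all probe sets there was 0.00. Highest was PCB 126 -10 of pool 1, with 52 of 58 above and a median of 0.17. The same doses in pool 2 gave -0.04 with TCDD and 0.08 with PCB 126. TCDD -10 of pool 1 was itself unusual among the 26 arrays. Deviations of all kept probe sets had their widest interquartile range there, 0.66, and the actin 3' minus 5' difference was the smallest, 0.64.

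**Figure D4:**
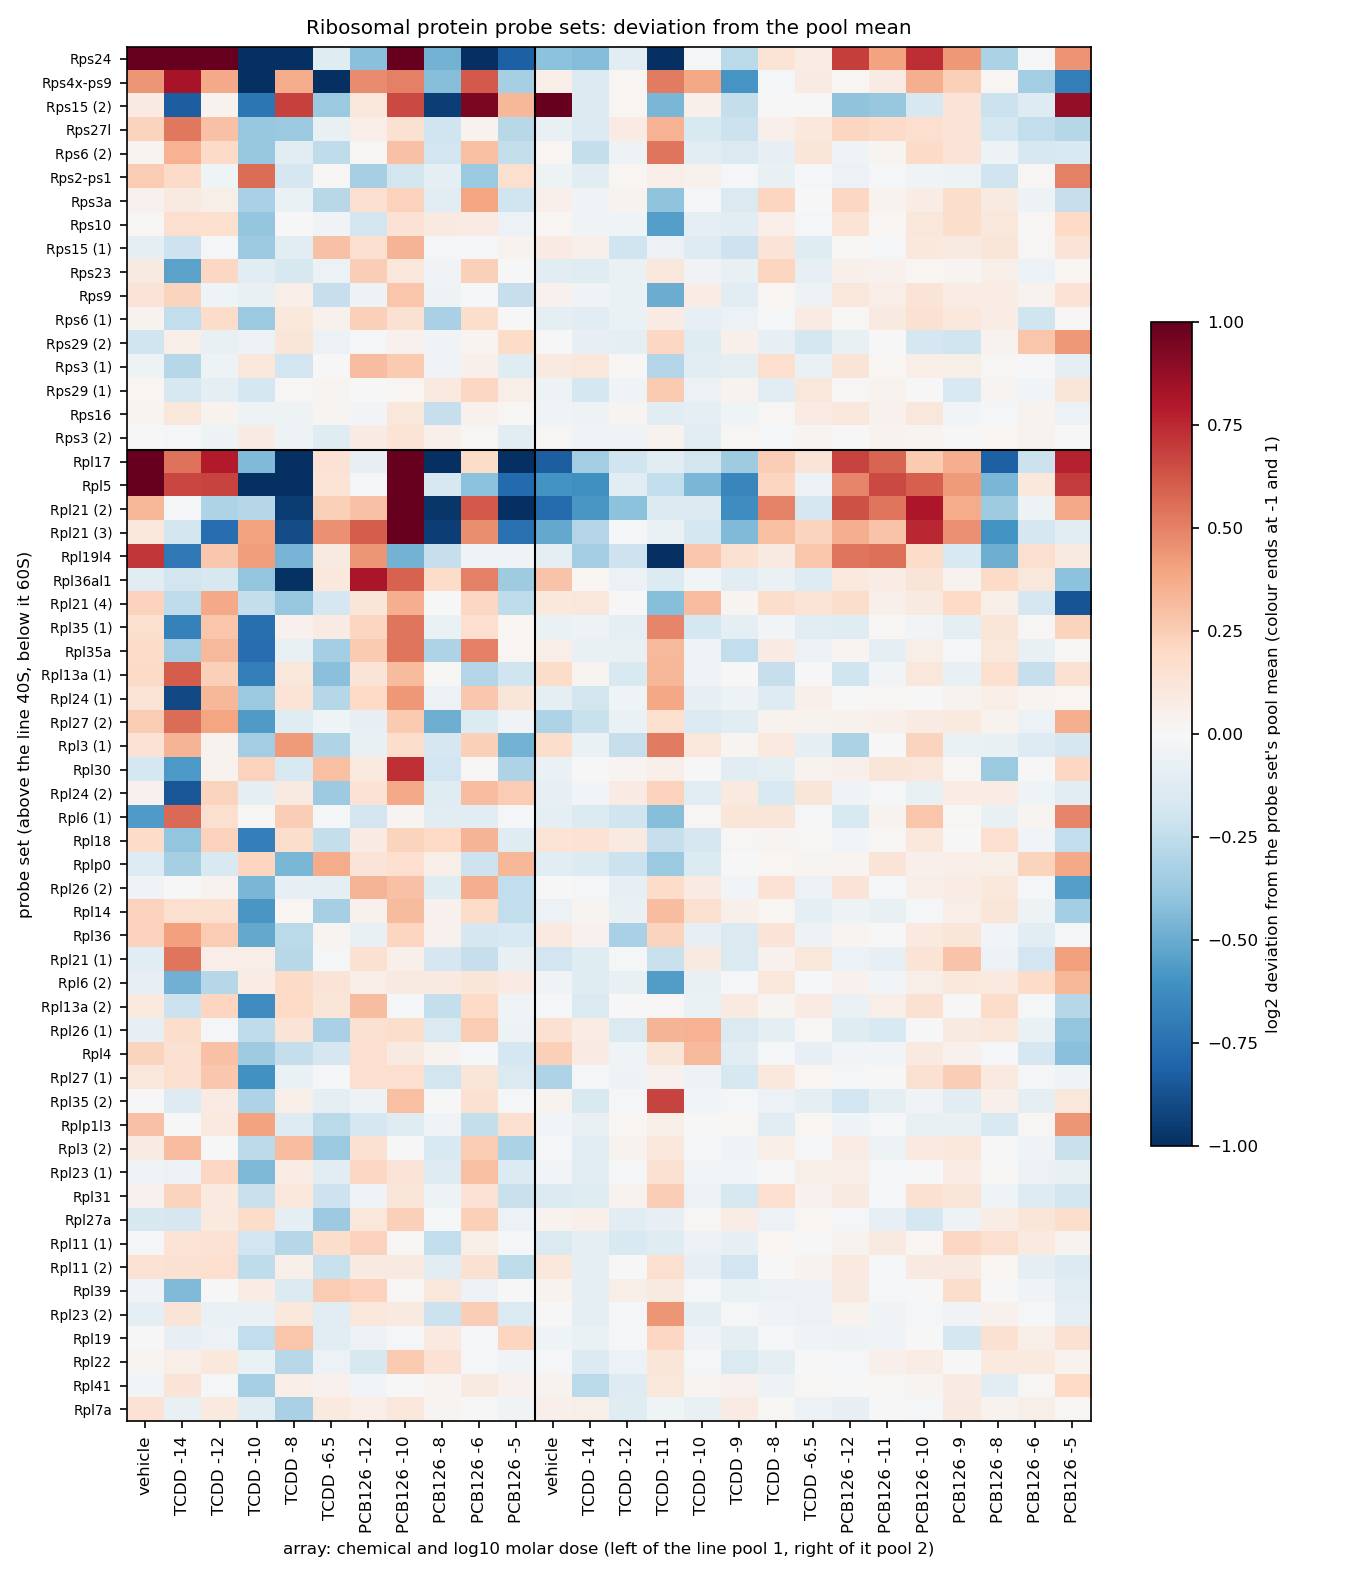
Deviation of each of the 58 probe sets (rows, 40S above and 60S below the line, most variable first) from its own pool mean on each of the 26 arrays (columns, pool 1 left and pool 2 right of the line); red is higher and blue lower, in log2. TCDD -10 of pool 1 is blue in most rows (45 of 58), pool 1 is more strongly coloured than pool 2, and the top rows of the 60S block are red on PCB 126 -10 of pool 1.

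A pair of pool 2 arrays stood apart in shape rather than in level. At TCDD -11 the middle of the members lay 0.07 above the pool mean, but 4 lay more than 0.5 log2 above it and 4 more than 0.5 below: the second Rpl35 probe set read 12.49, where the other pool 2 arrays read 11.62 to 11.92, and Rps24 and Rpl19l4 read 7.24 and 7.44, their lowest in the pool. That array had the largest actin 3' minus 5' difference of all, 2.19. At PCB 126 -5, the other one, the actin difference was the smallest of pool 2, 1.24, and the reverse-strand control mean the highest, 8.36. There, 29 of the 41 members called between the pools deviated toward their pool 1 mean, no more than on several other pool 2 arrays (32 at PCB 126 -6, 31 at TCDD -10), but by a median of 0.15, against 0.04 on each of those, where the median pool difference is 0.40 in size. The fourth Rpl21 probe set read 10.77 there, where the other pool 2 arrays read 11.21 to 11.94 and pool 1 read 10.56 to 11.31. On TCDD -10 of pool 1, 37 of the 41 lay farther from pool 2 than their mean, by 0.32. Without TCDD -10 of pool 1 and PCB 126 -12 of pool 2, the array that goes against its label, 39 members were called between the pools, 33 higher and 6 lower, and none in a dose trend.

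The 5 probe sets with the largest SD within pools, for Rps24, Rpl17, Rpl5 and Rpl21 (the second and the third), were all high on PCB 126 -10 of pool 1 and low on TCDD -8, but did not move together on every array. At TCDD -10 of pool 1 Rps24 and Rpl5 deviated from their pool means by -1.38 and -1.34 and the third Rpl21 probe set by 0.40. At TCDD -12 Rps24 deviated by 1.15 and that probe set by -0.76. They were picked for this after their values were seen, so nothing is tested on them. Rpl5 binds the 5S ribosomal RNA and, like Rpl11, the p53 regulator Mdm2, Rps24 and Rpl5 are genes of Diamond-Blackfan anaemia, and Rpl17 lies at the tunnel exit. In pool 1 Rpl17 read 8.18 with vehicle, then 7.30, 7.55, 6.32, 5.09 and 6.89 at TCDD -14, -12, -10, -8 and -6.5. With PCB 126 at -12, -10, -8, -6 and -5 it read 6.67, 8.83, 5.27, 6.94 and 5.26. In pool 2 Rpl17 stayed between 5.98, with vehicle, and 7.58, at PCB 126 -5.

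Rps24 ranged as widely. In pool 1 it read 9.66 with vehicle, 10.06, 9.52, 6.99, 7.01 and 8.25 with rising TCDD and 7.95, 9.89, 7.90, 7.28 and 7.55 with rising PCB 126. In pool 2 it lay between 7.24 and 9.32. Rpl5 read 7.13 with vehicle in pool 1, 4.58 at TCDD -8 and 7.33 at PCB 126 -10, and the second Rpl21 probe set 5.60, 4.33 and 7.43. PCB 126 -10 of pool 1 was thus the highest array for Rpl17, Rpl5 and both Rpl21 probe sets and the next to highest for Rps24, while TCDD -8 of pool 1 was among the 3 lowest arrays of that pool for each of the 5.

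Other probe sets for the same genes spanned a much narrower range. Those naming Rps24, Rpl17 or Rpl5 together with their copies lay between 12.28 and 12.82, between 11.20 and 12.39 (over 2 probe sets) and between 11.92 and 12.67 in pool 1. The first Rpl21 probe set lay between 10.52 and 11.34 there, and the fourth between 10.56 and 11.31. Within these ranges the order was shared only in part. The Rps24 probe set with copies was highest on PCB 126 -10 (12.82). The fourth Rpl21 probe set was lowest on TCDD -8 (10.56) and next to highest on PCB 126 -10 (11.30). The Rpl5 probe set with copies went the other way, with 12.55 on TCDD -8 and 12.33 on PCB 126 -10. The 2 Rpl17 probe sets with copies read 11.90 and 11.81 on TCDD -8 and 12.02 and 11.74 on PCB 126 -10, at neither end of their ranges. The reverse-strand control mean stood at 9.15 on PCB 126 -10 of pool 1, its highest value, at 8.45 on the vehicle array and at 6.02 on TCDD -8, its lowest in that pool. In pool 1 the 5S rRNA control likewise read 5.82, 5.28 and 3.05 on those arrays, and its lowest value, 2.02, was on PCB 126 -8. Not every array followed: the reverse-strand mean was also high, 8.97 and 8.44, at TCDD -12 and -6.5, where Rpl17 read 7.55 and 6.89. With the reverse-strand mean as a covariate the SD within pools went from 0.87 to 0.67 for Rpl17, from 0.87 to 0.74 for Rps24, from 0.71 to 0.53 for Rpl5, from 0.71 to 0.60 for the second Rpl21 probe set and from 0.58 to 0.54 for the third. A probe set for Eef1a1 and one for Ybx1, both genes of pyrimidine-tract messengers, spanned as wide a range, 7.01 to 10.52 and 2.75 to 6.25 in pool 1. Both were picked by hand, and the Ybx1 one read in part below the filter's 3.712. Ranges of other such probe sets are not given, so no trait of pyrimidine-tract messengers is shown. The part of the reverse-strand signal in the values of the ribosomal protein, Eef1a1 and Ybx1 probe sets was not tested.

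**Figure D5:**
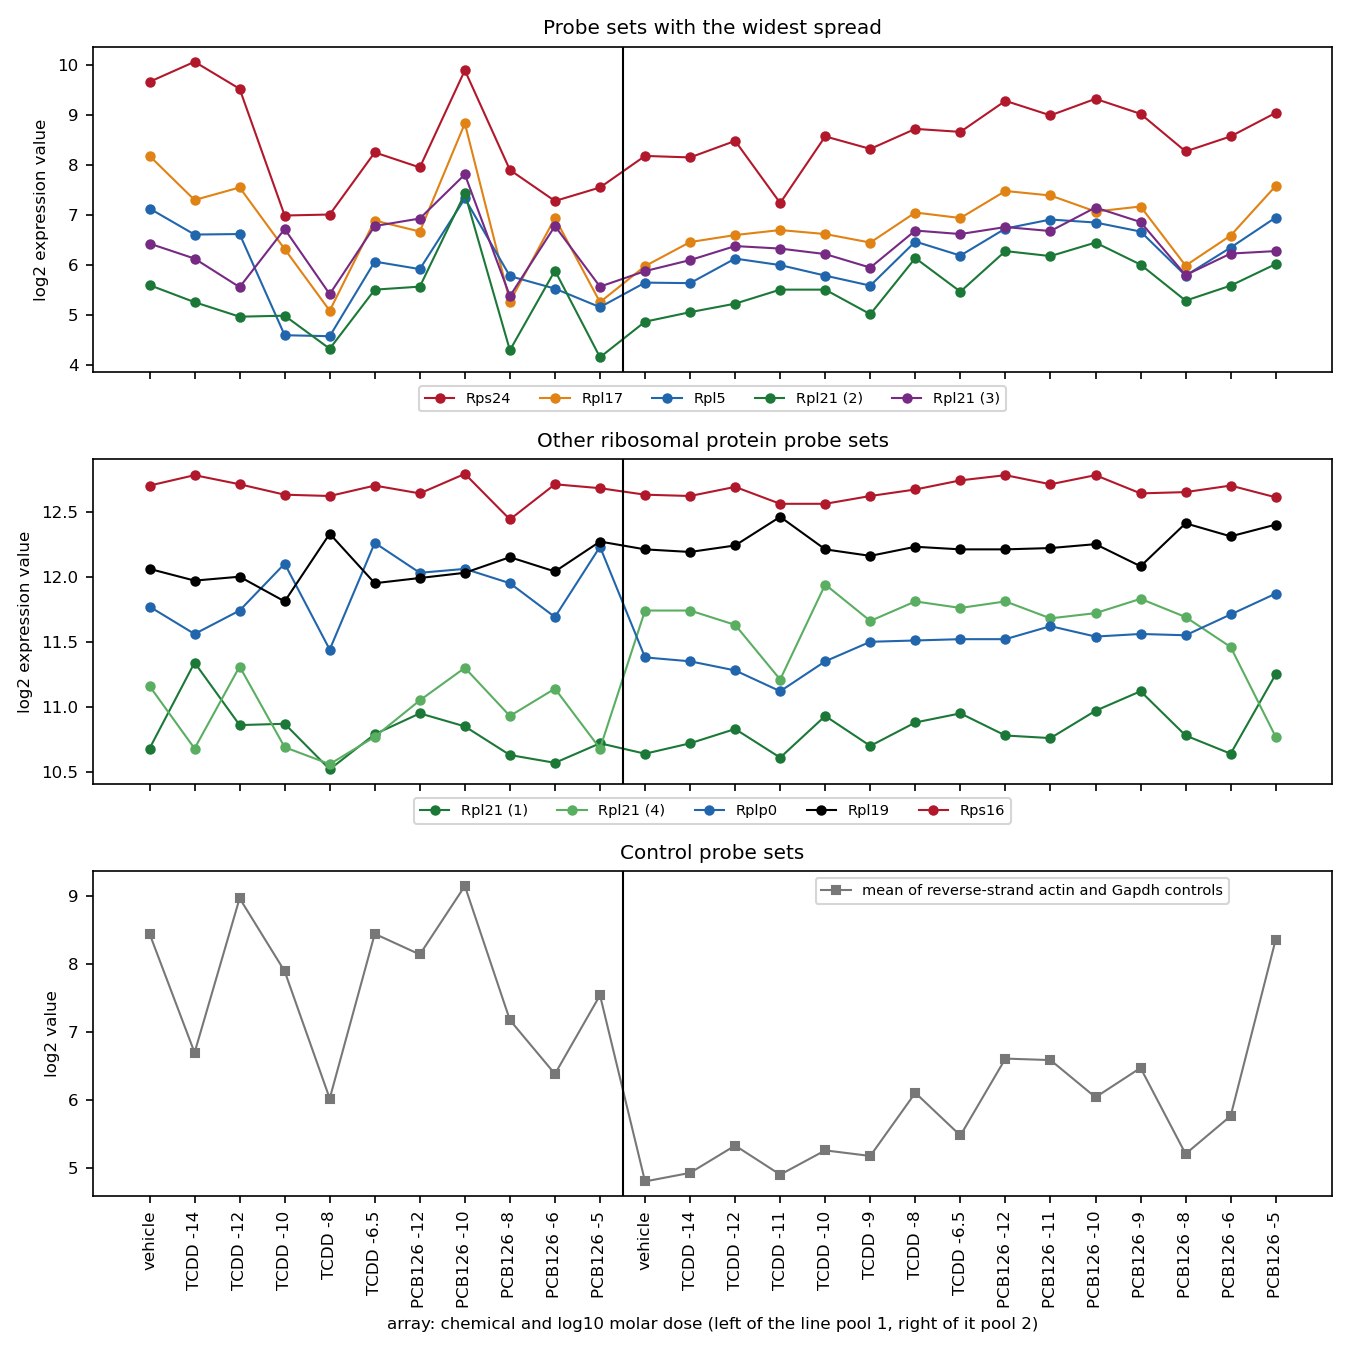
Log2 values of the 5 widest-varying probe sets (top), of 5 other ribosomal protein probe sets (middle) and of the mean of the reverse-strand actin and Gapdh controls (bottom) on each of the 26 arrays, pool 1 left and pool 2 right of the line; lines join arrays only to guide the eye, and the panels have different scales. The top probe sets are high together on PCB 126 -10 of pool 1, where the controls reach 9.15, and low on TCDD -8, where the controls stand at 6.02.

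Genes around the ribosome gave counts of the same kind. The remaining ribosomal proteins by other names on the array, Rpsa (2 probe sets) and Rack1, had 0 of 3 called in either trend, and Rpsa had PCB 126 slopes of 0.049 ± 0.020 and 0.028 ± 0.019 (adjusted p 0.189 and 0.408). Translation factors and other genes with pyrimidine tracts had 0 of 36 probe sets called in either trend and 25 higher and 5 lower in pool 2. For the trend counts of these lists, 3.1% of all probe sets were called with TCDD and 4.25% with PCB 126. At such shares a count of 0 in lists this short tells little about them. For all pool counts of these lists, 79.8% of all probe sets were called, 40% higher, and the counts were not recomputed on other array scales. Among the translation factors and pyrimidine-tract genes, Nap1l1, a histone chaperone, was higher in pool 2 by 0.22 to 1.66 log2 on its 3 probe sets. The elongation factor Eef2 differed by -0.14 to -1.16 on its 4. Ribosome assembly genes had 0 of 19 called in either trend and 12 higher and 2 lower in pool 2, with Nop58, of the box C/D complexes, highest at 1.99. Of growth signalling genes 0 of 9 were called in either trend, and 5 were higher and 2 lower in pool 2.

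Ribosomal proteins of the mitochondria, which build a separate ribosome, had 1 of 16 probe sets called with TCDD, where 3.1% of all were. It was Mrpl50, which fell by 0.079 ± 0.021 log2 per decade (adjusted p 0.036). With PCB 126 0 of 16 were called, where 4.25% of all were. Between the pools 14 of these were higher and 0 lower in pool 2, with a median of 0.68. Of all probe sets 40% were higher and 39.7% lower, and this count too was not recomputed on other array scales. The 31 probe sets that name several cytosolic ribosomal protein genes at once had 0 called with TCDD, where 3.1% of all were. With PCB 126 2 of them were called, both higher, where 4.25% of all were called and 1.56% were higher. One names Rps2 with its copies (0.063 ± 0.016, adjusted p 0.0222) and the other Rps18 with its copies (0.040 ± 0.011, adjusted p 0.0426). Rps2 and Rps18 are 40S proteins, at the messenger entry and in the subunit's head. The Rps2 probe set lay between 12.53 and 13.04 in pool 1 and between 12.25 and 13.15 in pool 2. Both highest values were at PCB 126 -5. In pool 2 that array stood apart, as described above, and the others read 12.25 to 12.73. The 2 calls were not followed under the alternatives. Over all 31 the median PCB 126 slope was -0.006, and 17 were higher and 4 lower in pool 2, beside the same shares of all probe sets.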

How the data were processed

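Per the labels, each array holds RNA of 1 culture, and chemical, dose and pool come from the sample labels. Values are log2 expression as the authors deposited them, from -1.43 to 15.01, made with GCRMA 2.8.0, with RMA also named, per the submitters' processing notes, settings not given in the sources used here. Background correction of this kind can compress dim values. The values were used without rescaling. Without 59 controls, 8740 probe sets remained, of which 5197 passed the filter. Fits used limma 3.58.1 (R 4.3.3), with moderated variances that were robust and followed a mean trend. The trend model (pool, chemical, dose slope within chemical) left 20 residual degrees of freedom, the 15-group model 10 and the model with slopes by pool 16. Pool is a block because the labels place its arrays in cells of the same animals. Members and gene lists were chosen with earlier results of these data known. Members were named if called by dose, if among the 5 genes with the largest positive or negative estimate in a trend or the pool difference, if probe sets of a gene were called with opposite signs, or if not kept. Rpl4, Rps27l, Rps3, Rps16, Rpl35 and the most variable probe sets were named after their values were seen. The Eef1a1 and Ybx1 probe sets with wide ranges were picked outside these rules. Promoter windows come from RefSeq (GRCr8). Alternatives were other scalings, filters, covariates and omitted arrays. Probe sequences were not used here. The fit was tested on simulated data, and the number of arrays limits its precision.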

Additional observations from a re-analysis of the deposited data

How the results depend on the processing

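The count of members called in the TCDD trend, 0, was 1 (the second Rpl6 probe set) with arrays centred on the median or on the mean, without the trend and robust options, and with the actin covariate, and 0 to 1 when single arrays were left out. For PCB 126 it was 1 with only that chemical's arrays, 2 with vehicle 1 decade below the lowest dose, and 0 to 1 without single arrays. The cause was not tested. No member was called in either high-dose contrast, in the slope difference or in the pool difference of slopes under any alternative run, single arrays left out included; for the last of these, the runs without a vehicle array could not be fitted. The pool count of 41 was 38 to 43 without single arrays, 13 with the actin covariate, 23 of 32 over plain _at probe sets (fewer were tested) and 39 with the reverse-strand covariate, chosen, like the omission of 2 arrays, after seeing the data. The first Rpl6 probe set's pool difference turned from -0.31 to 0.13 (adjusted p 0.585) with the actin covariate. With no replicate block (no pool term) 0 members were called in either trend, while the calls over all probe sets went from 161 to 39 with TCDD and from 221 to 56 with PCB 126.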
